A study of Bos taurus with 6 samples.

Results

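The SLC25 family of mitochondrial carriers was examined in intramuscular fat (IMF) of castrated and intact male Qinchuan cattle. Members were all rows of the mRNA count table whose gene symbol starts with SLC25A, which gave 37 of 25444 genes. IMF had been dissected at slaughter at 24 months from the sternomandibularis muscle of Qinchuan males that were sired by a single bull, weaned at 3 months and fed alike. The steers had been castrated surgically at 6 months under local anesthetic and the bulls were left intact. RNA of the animals of a group was pooled in equal amounts into 1 library per group and read on an Ion Proton sequencer. The series text gives 6 animals behind each pool and the sample labels give 3.

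SLC25 proteins sit mostly in the inner mitochondrial membrane and exchange metabolites, nucleotides, cofactors and iron between the matrix and the cytosol. In fat cells the citrate carrier SLC25A1 is known for the export of citrate, from which the cytosol makes acetyl-CoA for fatty acid synthesis, and the acylcarnitine carrier SLC25A20 works in the opposite sense by bringing fatty acids into the matrix for oxidation. Other members serve energy supply in every cell, chiefly the exchange of ADP, ATP and phosphate.

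Of the 37 members, 34 had at least 1 count in either library and 31 had at least 10 counts over both together. RefSeq lists 46 symbols that start with SLC25A, and 9 of them are not rows of the table under that symbol. Ranks and shares given here hold among the 37 members only. Members listed at 0 in both libraries were SLC25A31, SLC25A41 and SLC25A47. A count of 0 allows up to 3 counts, which is 0.237 CPM (counts scaled to 1000000 per library) in steers and 0.304 CPM in bulls. SLC25A2 and SLC25A48 each had 1 count, in bulls, and SLC25A45 had 1 in steers and 6 in bulls. Nothing could be said of a difference in these genes at this depth, and the counting interval of SLC25A45 ran from -8.23 to 0.34 on the log2 scale.

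The libraries held 12677375 gene counts in steers and 9868415 in bulls. Counts were divided by median-of-ratios size factors, and a fold change is the ratio of these normalized counts, steers over bulls, with its logarithm to base 2 given as the log2 ratio. The 95% Clopper-Pearson intervals given with log2 ratios cover counting error only. The exact binomial test used for each gene compares the 2 libraries and not the conditions, since 1 pool per group leaves no spread between replicates. A gene was called when its Benjamini-Hochberg adjusted p was under 0.05 and its fold change was over 2. Scaling by total counts instead moved the median log2 ratio over all genes from 0.01 to -0.23, a shift of -0.24 for every gene, so that values between 0 and 0.24 turn below 0 under it. In these bulk libraries, fewer cells of a type and less RNA per cell cannot be told apart.

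Markers of fat cells and of muscle fibres were both present. Of 10 adipocyte markers 9 were in the table and had counts, and together they took 2578 CPM in steers and 3592 CPM in bulls. CIDEA was called higher in steers (998 and 136 counts) and FABP4 lower (3951 and 7574), and CIDEC had the most counts in steers, 9931 beside 7501 in bulls. Of the 9, 4 had log2 ratios above 0 and 5 below 0, among the latter ADIPOQ at -0.68 and PLIN1 at -0.38. All 12 skeletal muscle markers were present as well, at 2775 CPM in steers and 4702 CPM in bulls. T lymphocyte markers (7 of 7 called lower in steers) took 7.57 and 79.5 CPM, and myeloid markers (7 of the 9 in the table called lower) took 1623 and 4351 CPM. B lymphocyte markers took 1.89 and 9.42 CPM with 2 of 5 called lower, and MS4A1 and CD79B were at 0. Endothelial markers took 735 and 897 CPM with 0 of 6 called, and fibroblast markers took 90749 and 54921 CPM with 2 of 7 called higher. Erythroid markers took 3.16 and 0.811 CPM, with ALAS2 and HBM at 0 in both libraries and 1 gene, HBB, called higher in steers. Over all genes with a count, 4.66% were called higher in steers and 8.50% lower. The part of these cell types in the values of the carriers was not tested.

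Between the pools, 2 of the 34 members with a count were called higher in steers, SLC25A1 and SLC25A15, and 0 were called lower. Over all 17752 genes with a count, 4.66% were called higher in steers and 8.50% were called lower. Of all called genes 35.4% were higher, and 21.1% under total counts. The members' shares were 5.88% and 0%, so the number of members called higher was close to the background. Irrespective of p, 2 members were over 2-fold higher and 1, SLC25A45, over 2-fold lower, where the background was 7.22% and 11.8% of genes. Without the fold threshold, 8 members differed beyond counting error toward steers and 5 toward bulls (5 and 9 under total counts), or 23.5% and 14.7%, beside 20.4% and 18.9% of all genes. The share of all genes beyond counting error was not computed under total counts, so the members' numbers there have no background beside them. Counting error leaves out the spread between animals. With an assumed biological coefficient of variation of 0.1, 0.2 or 0.4 between pools, edgeR's exact test left 4, 2 and 0 members at an adjusted p under 0.05. At 0.1 these were SLC25A1, SLC25A15, SLC25A29 and SLC25A37, and at 0.2 SLC25A1 and SLC25A15. The share of all genes passing there without a fold threshold was not computed, so these numbers have no background beside them. The median log2 ratio of the 34 members was 0.06, with quartiles of -0.31 and 0.45, where all genes had a median of 0.01 and quartiles of -0.51 and 0.45. For 29 of the 31 members with at least 10 counts the fold change was under 2 in either direction, and for 21 of them the whole counting interval lay within that range. All 14540 genes with at least 10 counts had quartiles of -0.42 and 0.36, so most of them were under 2-fold too. Their exact share was not computed.

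**Figure D1:**
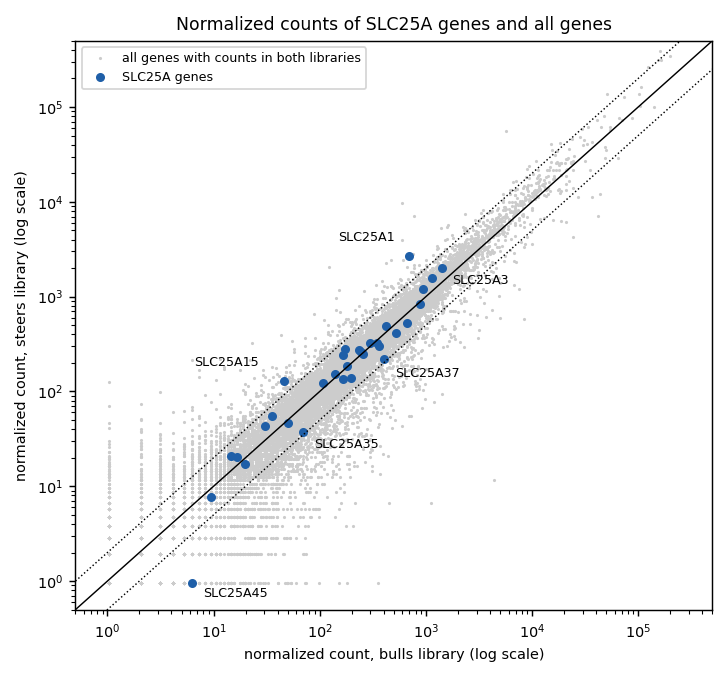
Normalized counts in the steers library (vertical, log scale) against the bulls library (horizontal, log scale), with grey points for all genes counted in both libraries and blue points for 32 SLC25A genes. The solid line marks equal values and the dotted lines 2-fold differences; SLC25A1 and SLC25A15 lie above the upper dotted line and SLC25A45, with 7 counts in all, below the lower one.

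SLC25A1, the citrate carrier, had the highest count of the 37 members in steers. It was counted 2818 times in steers and 662 times in bulls, or 2701 and 691 after normalization. It rose 3.91-fold, a log2 ratio of 1.97 (95% interval 1.84 to 2.09). This was the largest rise among the members, and it was called under each scaling tried (total counts, TMM and upper-quartile factors).

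The other carriers of oxo acids were not called. SLC25A11, which exchanges oxoglutarate for malate in the malate-aspartate shuttle, was counted 867 times in steers and 843 times in bulls, a log2 ratio of -0.08 (-0.22 to 0.06). Under total counts it was at -0.32 with an adjusted p of 2.3e-05 in the exact binomial test. SLC25A21, the oxoadipate carrier, had 8 and 9 counts. Compared within each library, so that no scaling enters, SLC25A1 made up 76.5% (95% interval 75.1% to 77.8%) of the counts on SLC25A1 and SLC25A11 together in steers and 44.0% (41.5% to 46.5%) in bulls. The intervals do not overlap.

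The weight of SLC25A1 within the family was correspondingly larger in steers. All members together took 13926 counts in the steers pool and 9798 in that of bulls. This is 0.110% (0.108% to 0.112%) and 0.0993% (0.0973% to 0.101%) of all counts. The sums hold only rows named SLC25A. Carriers under other symbols, such as UCP2 with 405 and 1754 counts, are outside them, and the order of the libraries with those included was not computed. SLC25A1 alone accounted for 20.2% of the members' counts in steers and 6.76% in bulls. Without it, the members took 0.0876% of all counts in steers and 0.0926% in bulls, and the order of the libraries turned. On normalized counts, the sum over members was higher in steers by a log2 difference of 0.39 (0.35 to 0.42) with SLC25A1 and of 0.16 (0.12 to 0.20) without it.

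**Figure D2:**
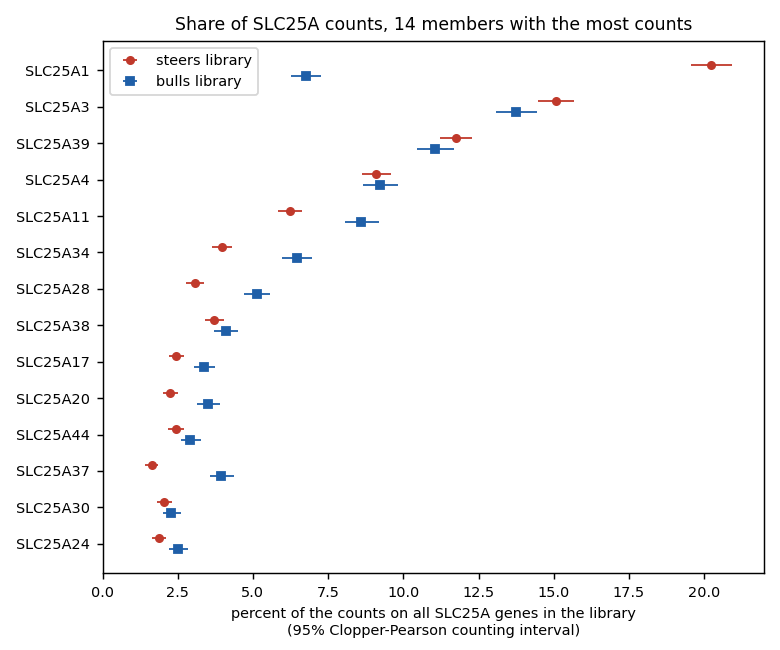
Percent of the counts on all SLC25A genes (horizontal) taken by each of the 14 members with the most counts, in the steers library (red circles) and the bulls library (blue squares), with 95% Clopper-Pearson counting intervals. SLC25A1 moves from 6.76% in bulls to 20.2% in steers, and SLC25A37 from 3.95% to 1.63%; shares of different genes also depend on transcript length.

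SLC25A15, the ornithine carrier of the urea cycle, was the second member called. It was counted 135 times in steers and 44 times in bulls and rose 2.82-fold, a log2 ratio of 1.495 (0.99 to 2.02), with an adjusted p of 2.1e-09 in the exact binomial test. The lower end of its interval lies just under 2-fold, and the counts place the change between 1.99-fold and 4.06-fold. In the RefSeq annotation of a newer assembly (ARS-UCD2.0) its span overlaps that of LOC132346804, which is not a row of the table used here.

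The other amino acid carriers were not called. SLC25A29, which carries basic amino acids, had 293 and 165 counts, and its log2 ratio of 0.71 (0.43 to 0.99) exceeded counting error without reaching 2-fold. SLC25A38, the glycine carrier that supplies heme synthesis, was counted 516 times in steers and 402 times in bulls, a log2 ratio of 0.24 (0.05 to 0.43, adjusted p = 0.036 in the exact binomial test). With total-count scaling it was at -0.0012, and with TMM factors its adjusted p in the exact binomial test was 0.057. SLC25A44, a branched-chain amino acid carrier, had 340 and 286 counts and a log2 ratio of 0.13 (-0.10 to 0.36), which was -0.11 under total counts. SLC25A15 took 31.5% (27.2% to 36.2%) of its joint counts with SLC25A29 in steers and 21.1% (15.7% to 27.2%) in bulls, intervals that overlap at their ends.

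For glutamate, both aspartate/glutamate carriers of the malate-aspartate shuttle differed by less than counting error. SLC25A12 was counted 270 times in steers and 235 times in bulls, a log2 ratio of 0.08 (-0.18 to 0.34). SLC25A13, also known as citrin, had 18 and 19 counts, and its interval from -1.21 to 0.81 leaves a change of 2-fold downward possible. SLC25A12 held 93.8% of the counts on this pair in steers and 92.5% in bulls.

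**Figure D3:**
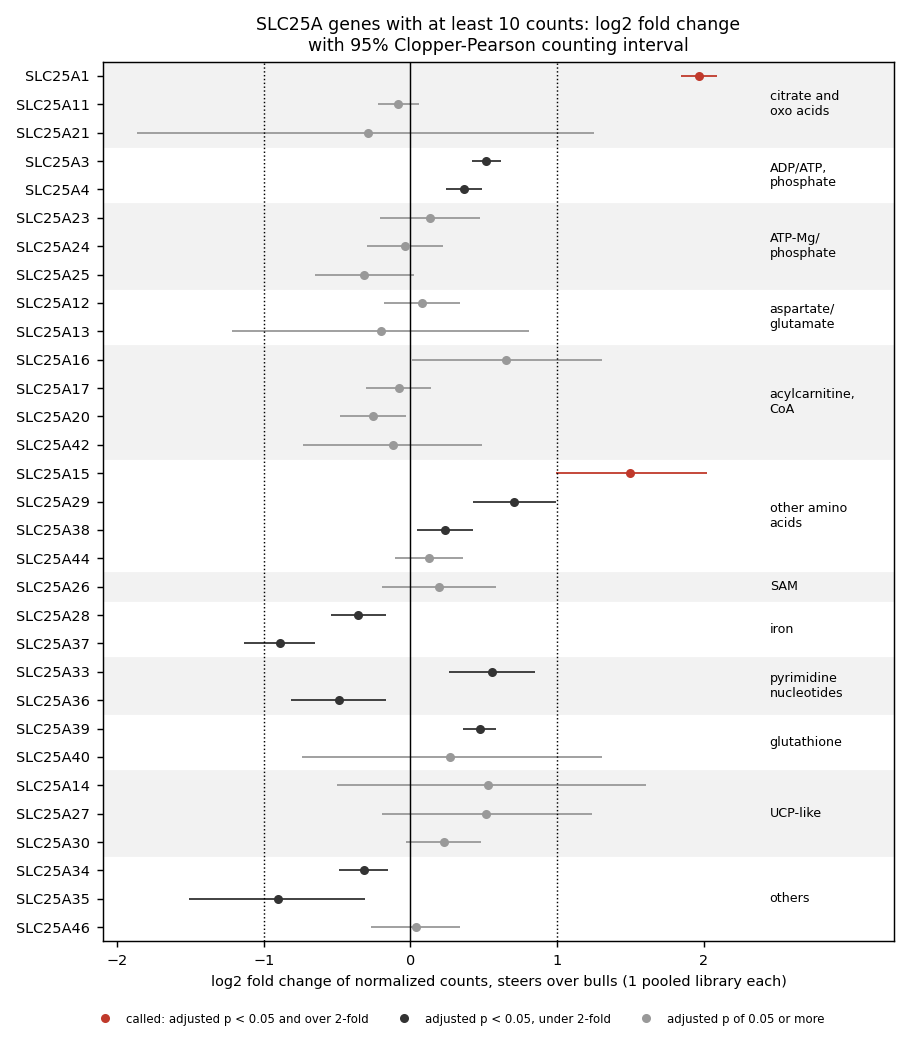
Log2 fold change of normalized counts, steers over bulls (horizontal), for the 31 SLC25A genes with at least 10 counts, grouped by what they carry, with 95% Clopper-Pearson counting intervals and dotted lines at 2-fold. Only SLC25A1 and SLC25A15 (red) were called; 11 further genes (black) differed beyond counting error by less than 2-fold, among them the iron carriers SLC25A28 and SLC25A37 toward bulls.

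Of the carriers of oxidative phosphorylation, SLC25A3 and SLC25A4 were higher in steers beyond counting error in the scaling used here. SLC25A3, the phosphate carrier, was counted 2098 times in steers and 1348 times in bulls, a log2 ratio of 0.52 (0.42 to 0.62). SLC25A4, the ADP/ATP carrier typical of muscle and heart, had 1266 and 904 counts and a log2 ratio of 0.36 (0.24 to 0.49), which was 0.12 with an adjusted p of 0.10 in the exact binomial test under total counts. Neither reached 2-fold. Of the 12 skeletal muscle markers, 5 had log2 ratios above 0, as SLC25A4 did, and 7 below 0. ACTA1, CKM and MB were at -0.65, -0.67 and -0.97, and TNNC2 was at 0.996. MYH1 of the fast fibres was called higher at 1.15 and MYH7 of the slow fibres lower at -2.23, so the muscle markers moved both ways. The part of muscle fibres in the value of SLC25A4 was not tested. Of the 5 ADP/ATP and phosphate carriers listed, 3 were rows of the table, and SLC25A31 was at 0 in both libraries. Carriers without a row are not analysed here. Reads shared with those close in sequence to SLC25A4 would make its counts uncertain.

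The ATP-Mg/phosphate carriers, which load adenine nucleotides into the matrix in response to calcium, differed by less than counting error, except SLC25A25 under total counts. SLC25A23 was counted 160 times in steers and 134 times in bulls and SLC25A24 had 261 and 246, at 0.13 (-0.21 to 0.48) and -0.04 (-0.29 to 0.22). SLC25A25 had 140 and 160 counts, a log2 ratio of -0.31 (-0.65 to 0.02), which under total counts was -0.55 with an adjusted p of 0.0030 in the exact binomial test.

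The carriers of fatty acids and coenzyme A were not called. SLC25A20, the carnitine-acylcarnitine carrier, was counted 314 times in steers and 344 times in bulls, a log2 ratio of -0.25 (-0.48 to -0.03). Its adjusted p was 0.064 in the exact binomial test, and 5.9e-05 under total counts, where the log2 ratio was -0.49. With TMM factors the adjusted p of the exact binomial test was 0.041. SLC25A16, linked to coenzyme A import, had 58 and 34 counts, at 0.65 (0.01 to 1.30) with an adjusted p of 0.086 in the exact binomial test, and SLC25A42, the coenzyme A carrier, had 48 counts in each library. SLC25A17 of the peroxisome had 341 and 331 counts, at -0.08 (-0.30 to 0.14), and at -0.32 with an adjusted p of 0.013 in the exact binomial test under total counts.

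Both mitoferrins, which bring iron into the matrix for heme and iron-sulfur clusters, were lower in steers beyond counting error. SLC25A37 (mitoferrin-1) was counted 227 times in steers and 387 times in bulls, a log2 ratio of -0.89 (-1.13 to -0.65, adjusted p = 5.6e-13 in the exact binomial test). Among members with at least 10 counts, only SLC25A35 lay further toward bulls. SLC25A28 (mitoferrin-2) had 427 and 502 counts and a log2 ratio of -0.36 (-0.55 to -0.17). Mitoferrin-1 made up 34.7% (31.1% to 38.5%) of the mitoferrin counts in steers and 43.5% (40.2% to 46.9%) in bulls, intervals that do not overlap. Under total counts SLC25A37 reached -1.13 and was called lower. Mitoferrin-1 is best known from erythroid cells. Of the erythroid markers, HBB had 21 and 1 counts, HBA 16 and 6, AHSP 3 and 0 and SLC4A1 0 and 1, and ALAS2 and HBM were at 0. The T lymphocyte and myeloid markers are given above, and the part of any of these cell types in the mitoferrin values was not tested. In the newer annotation the span of SLC25A37 overlaps LOC523756, which carries the same name as a synonym and is not a row of the table used here.

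The pair of pyrimidine nucleotide carriers, which supply mitochondrial DNA and RNA synthesis, moved apart. SLC25A33 was counted 254 times in steers and 159 times in bulls, a log2 ratio of 0.55 (0.26 to 0.85). SLC25A36 had 145 and 187 counts, a log2 ratio of -0.49 (-0.81 to -0.17). Both exceeded counting error in opposite directions, although under total counts SLC25A33 was at 0.31 with an adjusted p of 0.074 in the exact binomial test. Without any scaling, SLC25A33 held 63.7% (58.7% to 68.4%) of their joint counts in steers and 46.0% (40.6% to 51.4%) in bulls, and the intervals do not overlap. Among other pairs compared in this way, intervals overlapped for SLC25A3 with SLC25A4 and SLC25A24 with SLC25A25. They also overlapped for SLC25A34 with SLC25A35, SLC25A16 with SLC25A42, SLC25A12 with SLC25A13 and SLC25A39 with SLC25A40. How often pairs of other genes differ in this way was not computed.

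SLC25A39, a carrier of glutathione, was among the members with the most counts. It was counted 1636 times in steers and 1083 times in bulls, a log2 ratio of 0.47 (0.36 to 0.59), beyond counting error and under 2-fold. Its relative SLC25A40 had 21 and 16 counts, at 0.27 (-0.74 to 1.31). SLC25A39 held 98.7% of the counts on this pair in steers and 98.5% in bulls. SLC25A26, which imports the methyl donor S-adenosylmethionine, had 127 and 102 counts, at 0.19 (-0.19 to 0.58).

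The members that resemble uncoupling proteins had log2 ratios above 0 that did not exceed counting error. SLC25A14 was counted 22 times in steers and 14 times in bulls and SLC25A27 had 45 and 29, at 0.53 (-0.50 to 1.61) and 0.51 (-0.19 to 1.24). SLC25A30 had 285 and 224 counts, at 0.23 (-0.03 to 0.48).

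Among members whose substrate is not given here, SLC25A34 and SLC25A35 were lower in steers beyond counting error. SLC25A34 was counted 552 times in steers and 632 times in bulls, a log2 ratio of -0.32 (-0.48 to -0.15). SLC25A35 had 39 and 67 counts, at -0.90 (-1.51 to -0.31, adjusted p = 0.0059 in the exact binomial test). It reached -1.14 and was called lower under total counts. In the newer annotation the span of SLC25A35 overlaps RANGRF, which had 150 and 95 counts. The same holds for SLC25A25 with NAIF1 (122 and 88 counts) and SLC25A26 with LRIG1 (352 and 269). Without known use of strand the reads of overlapping genes cannot be told apart. SLC25A46, an outer membrane protein of mitochondrial fission, had 194 and 174 counts, at 0.03 (-0.27 to 0.34).

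Genes that work beside the carriers were taken from lists written from general knowledge, 32 genes in the table in all. Of these, 0 were called higher and 1 was called lower, while 20 differed beyond counting error toward steers and 2 toward bulls (10 and 3 under total counts), with a median log2 ratio of 0.27. Over all genes 20.4% and 18.9% did so in the scaling used here, which is also the background for the partner lists that follow. That share was not computed under total counts, so the numbers of partner genes given under it have no background beside them. The called gene was UCP2, a carrier of this family under another symbol that is abundant in leukocytes. It was counted 405 times in steers and 1754 times in bulls, a log2 ratio of -2.24 (-2.40 to -2.08), and in size its interval overlaps that of SLC25A1. UCP3 had 106 and 65 counts, at 0.58 (0.12 to 1.05), and UCP1 had 2 and 0. MTCH1, a carrier-like protein of the outer membrane, had 8620 and 6577 counts and a log2 ratio of 0.27, and MTCH2 had 310 and 299.

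Enzymes on either side of citrate export were higher in steers by less than SLC25A1. All 7 of them exceeded counting error toward steers and 0 were called, and under total counts 5 of 7 still did while MDH1 turned to -0.0513. ACLY, which cleaves exported citrate, was counted 1753 times in steers and 984 times in bulls, a log2 ratio of 0.71 (0.60 to 0.83). ME1, which turns malate into pyruvate with a gain of NADPH, had 320 and 179 counts, at 0.72 (0.45 to 0.99). CS, which makes citrate in the matrix, was at 0.38 and PC, which makes oxaloacetate from pyruvate, at 0.49. Their intervals end below that of SLC25A1. The enzymes of the malate-aspartate shuttle, GOT1, GOT2, MDH1 and MDH2, lay between 0.19 and 0.36, and between -0.0513 and 0.117 under total counts. The carriers of this shuttle, SLC25A11 and SLC25A12, were at -0.08 and 0.08, and at -0.32 and -0.16 under total counts.

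The pyruvate carrier, which is not an SLC25 protein and feeds the same matrix pool, was higher in steers beyond counting error in both subunits, and in MPC1 alone under total counts. MPC1, listed under its older symbol BRP44L, was counted 1103 times in steers and 571 times in bulls, a log2 ratio of 0.83 (0.68 to 0.98). MPC2, listed as BRP44, had 347 and 233 counts, at 0.45 (0.21 to 0.70), which was 0.21 with an adjusted p of 0.17 in the exact binomial test under total counts. The proteins that import and insert carriers into the inner membrane showed 4 of 8 genes beyond counting error toward steers and 0 toward bulls, with TIMM22, the core of the carrier insertion complex, at 0.87 (0.57 to 1.18) and TOMM20 at 0.10 (-0.09 to 0.29). The outer membrane channels VDAC1, VDAC2 and VDAC3 were at 0.28, 0.14 and 0.23. VDAC2 did not exceed counting error, and VDAC2 and VDAC3 lie in the range that turns below 0 under total counts.

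**Figure D4:**
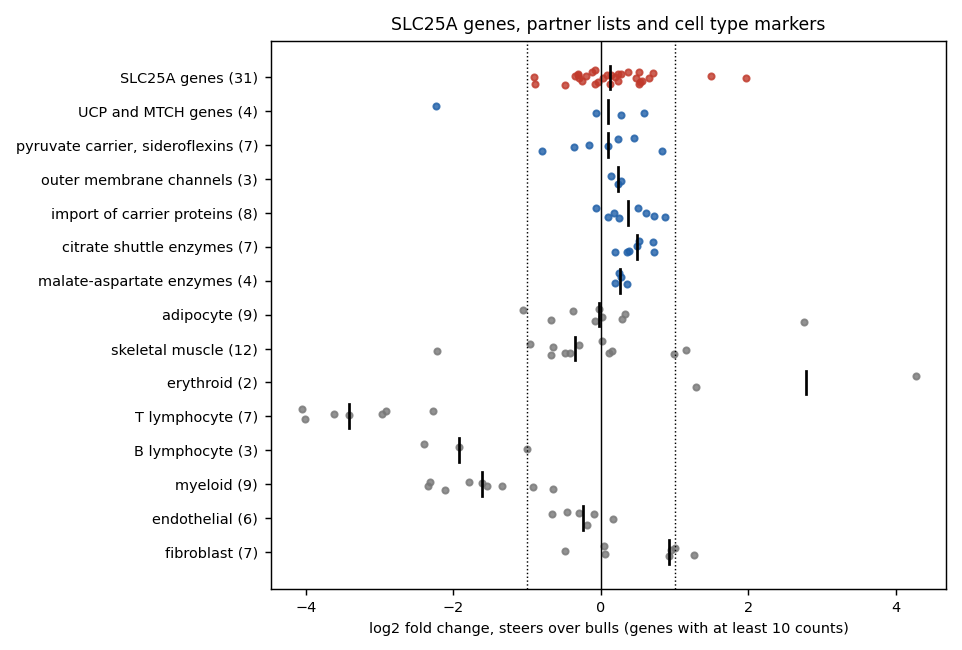
Log2 fold change, steers over bulls (horizontal), of single genes with at least 10 counts (points, number in brackets) in the SLC25A family (red), the lists of partner genes (blue) and the cell type markers (grey), with a black bar at each median and dotted lines at 2-fold. The carriers spread around 0 with SLC25A1 at 1.97 and SLC25A15 at 1.495, UCP2 stands at -2.24, and the T lymphocyte and myeloid markers lie below 0; CD3G, at 0 counts in steers, is drawn against a floor of 3 counts.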

How the data were processed

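The authors removed adaptors and low-quality Ion Proton reads and aligned the rest with MapSplice to a bovine assembly. The submitters' notes name BWA and GRCh37.p13, a human build. How reads were counted, and whether strand was used, is not given in the sources used here. The deposited table holds raw counts. Libraries were scaled by median-of-ratios size factors (1.04 in steers, 0.959 in bulls). Each gene was compared by an exact two-sided binomial test (scipy 1.17.1) with Benjamini-Hochberg adjustment across all genes with a count. For fold changes, a count of 0 was set to a floor of 3 counts where the other library had more than 3. Otherwise no fold change was given, and tests and intervals used the 0 itself. List medians used a prior of 0.5 counts.

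The test was checked on data simulated at the same depths from Poisson counts, over 17312 genes, and called 100 of 100 genes changed 4-fold and 1 of 17112 unchanged genes. Of 100 genes changed 1.5-fold, 67 passed the adjusted p and 1 was called. The changed genes were drawn only from genes above a minimum mean count, so these rates do not cover members with few counts. Poisson counts also hold no spread between animals. The alternatives were other scalings (total counts, TMM and upper-quartile factors from edgeR 4.0.16 under R 4.3.3), a minimum of 10 counts, a prior of 5 counts, other thresholds, and edgeR's exact test with an assumed biological coefficient of variation. Every member with at least 10 counts is named. Members and lists were chosen with earlier results of these data known. RefSeq (ARS-UCD2.0) matched all 37 symbols and supplied names and neighbours only. The build differs, so no coordinates are given, and shares of counts between genes also depend on transcript length, for which no value was used. The miRNA counts hold no member and were not used.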

Additional observations from a re-analysis of the deposited data

How the results depend on the processing

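SLC25A1 and SLC25A15 were called higher in steers under each scaling, under the minimum of 10 counts and with an assumed biological coefficient of variation of 0.1 or 0.2 in edgeR's exact test. With 0.4 the count of members called higher was 0, where 1 member, SLC25A1, had an unadjusted p under 0.05 (p = 0.023, adjusted p = 0.57 in edgeR's exact test), and over all genes 52 were called higher and 93 lower. With 0.2 these were 368 and 762. With no fold threshold, 8 members were higher and 5 lower, and over all genes 3619 and 3354. With 2-fold alone, 1 member was lower, and 1282 and 2090 of all genes were higher and lower. Total counts called 2 members lower (SLC25A35 and SLC25A37), moved the members' median to -0.18 and SLC25A38 to -0.0012, and called 559 genes higher and 2089 lower, 21.1% higher instead of 35.4%. By alternatives added after the data were seen, the family's share of counts without SLC25A1 was 0.0876% in steers and 0.0926% in bulls, and 0.135% and 0.114% of a total without the 10 genes with the most counts, which took 18.8% and 13.02%. The cause of these shifts was not tested. No paired analysis was possible because each mRNA group holds 1 library. For genes under 10 counts the depth allows no statement.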

Other observations

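RefSeq lists 2 genes of the family whose rows stand under older symbols and that the rule therefore left out. MCART1, the NAD carrier now named SLC25A51, was counted 104 times in steers and 105 times in bulls, a log2 ratio of -0.14 (95% interval -0.54 to 0.27). MCART6, now SLC25A53, had 10 and 7 counts.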
